A study of Mus musculus with 12 samples.

Results

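AGO2-bound RNA of tibialis anterior muscle was compared between mir-486 knockout (KO) and wild-type (WT) mice at the peaks called in KO. The members are all 376083 peaks that the authors listed for the direct comparison of KO over WT, 119859 in a library set here called set 1 and 256224 in set 2. They are 4 of the series' 12 libraries read against each other and part of 1426686 peaks over all deposited lists. Each set holds 1 WT and 1 KO total chimeric immunoprecipitated (IP) library, and the sets were kept apart throughout. The labels give WT as C57BL/6 and KO (miR-486-/-) as FVB N/J, all muscles at 6 months of age and with no treatment named. The study's methods instead describe KO mice moved by backcrossing onto C57BL/6J. Labels and methods were not reconciled here, so genotype and named strain cannot be told apart. The methods name a larger number of muscles per cohort than there are total IP libraries, and neither source says whether a library holds 1 muscle or several pooled. The methods also say that the work was done in duplicate. Whether the sets come from different animals is therefore not known.

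AGO2 is the protein that holds a microRNA and, through it, the messenger RNAs that the microRNA pairs with. In chimeric eCLIP, AGO2 is cross-linked to RNA in the tissue and pulled down, the bound RNA is sequenced, and a ligation step joins some microRNAs to the RNA they sat on. miR-486 is made from an intron of Ank1 and is abundant in striated muscle and red blood cells, where it is known for targets in the PI3K, AKT and FOXO pathway. A peak with more reads in KO than in WT marks RNA that AGO2 held more often in KO, or RNA that was itself more abundant: these cannot be told apart here, since the inputs of both genotypes were not compared with each other.

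A peak was called gained where the authors' deposited log2 fold of KO over WT was at least 3 and their deposited −log10 p at least 3. The p compares the reads of 1 library with those of another. An exact permutation test of 2 libraries against 2 cannot go below a two-sided p of 0.333. Genotypes were therefore compared without a test, and all that follows is description. In set 1, 214 peaks were gained (0.179% of those listed), and they lay in 118 genes (0.925% of genes with a listed peak). In set 2, 37 peaks were gained (0.0144%), in 31 genes (0.198%). No gained peak of one set overlapped a gained peak of the other. The lowest log2 fold among gained peaks was 3.01 in both sets, and the highest just outside the threshold was 2.96 in set 1 and 2.99 in set 2.

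The sequences that stand out first are short. Of the gained peaks, 15 in set 1 and 1 in set 2 also passed the same thresholds over the input of their own KO library, and 6 of the merged stretches among them were 19 to 24 nt long, about the length of a microRNA. They are shown from the reference, 5′ to 3′ on the peak's strand, with the build GRCm38. In the last of them the capitals mark GAGGTAG, the letters of the let-7 seed itself, which 0.365% of the listed peaks of set 1 hold on their own strand.
Selenot, intron, chr3:58577010-58577030, plus strand: gtcggggcgcttcggcgggcc
4930444E06Rik, noncoding exon, chr2:144244704-144244725, plus strand: ctcaggctcgcctcgactggct
Pacsin2, intron, chr15:83432306-83432324, minus strand: ctttcagacggtgtgctta
Dagla, intron, chr19:10279750-10279773, minus strand: ctccacccagcagtaggggccctc
Camta1, intron, chr4:151222722-151222744, minus strand: cagcttagcggtggagcatgtgc
Hs3st2, intron, chr7:121433299-121433317, plus strand: ctctgccgGAGGTAGagtt

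Selenot, which encodes a selenoprotein of the endoplasmic reticulum, had the highest log2 fold of all listed peaks, 5.84. The pair of whole read numbers that gives its deposited fold and p was 64 reads in KO and 1 in WT, with an exact 95% counting interval of the log2 fold from 3.31 to 11.2. The antisense RNA gene 4930444E06Rik had 5.62 from 55 reads against 1. Pacsin2, a membrane-shaping protein, had 5.57 from 53 against 1 (interval 3.03 to 10.9), and Hs3st2, a heparan sulfate sulfotransferase, 4.88 from 33 against 1. All of these were peaks of set 1. None of the listed peaks of set 2 overlapped the Selenot, 4930444E06Rik or Hs3st2 stretches, and 4930444E06Rik had 0 listed peaks there. At Pacsin2 a listed peak of set 2 overlapped the stretch with 250 KO reads against 187 in WT, a log2 fold of 0.30.

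The folds of the KO lists lay above 0 for most peaks, which a reader has to set beside every fold that follows. In set 1 the median log2 fold was 0.72 and 67.5% of listed peaks were above 0; in set 2 the median was 0.27 and 62.6% were above 0. Peaks called in the WT libraries of the same pairs, with the sign turned to KO over WT, had medians of −0.74 in set 1 and −0.30 in set 2. A peak called in one library is thus read, on average, as higher in that library. The commonest listed value in set 1 was the log2 fold of 1.43 that 3 KO reads and 1 WT read give, at 19.7% of its peaks, and the same pair of reads made up 5.75% of the peaks of set 2.

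**Figure D1:**
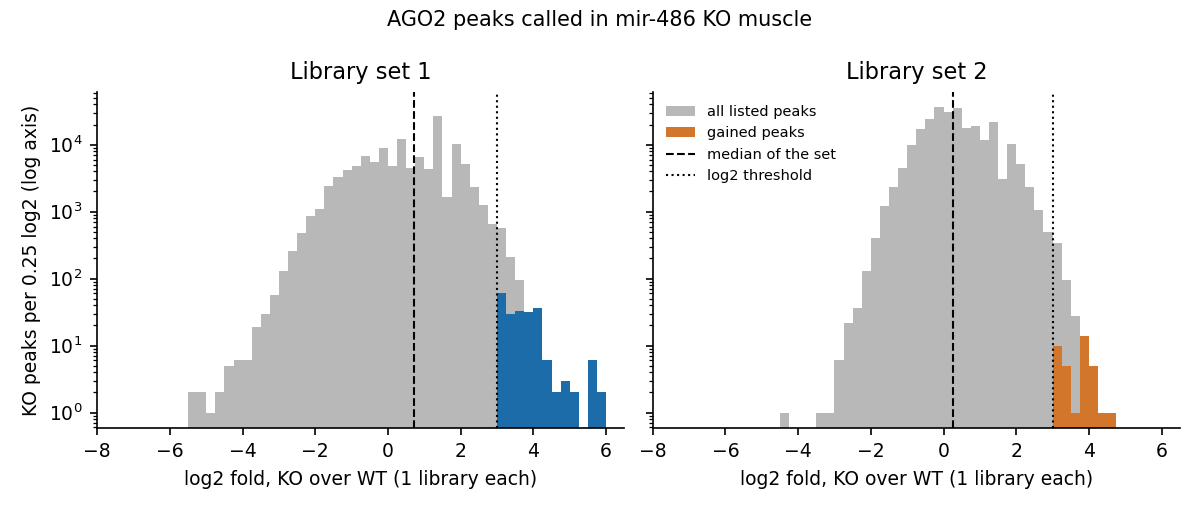
Log2 fold of KO over WT (x axis) against the number of KO peaks per 0.25 log2 on a log axis, for library set 1 (left) and set 2 (right), with gained peaks in colour, the median of the set dashed and the log2 threshold dotted. Both distributions have their median above 0, at 0.72 and 0.27, and the coloured peaks are 214 of 119859 and 37 of 256224.

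Read numbers behind the gained peaks were small. A pair of whole numbers was found for all 214 gained peaks of set 1 and all 37 of set 2. The WT library had 1 read at 95 gained peaks in set 1 and at 20 in set 2, and at most 2 reads at 76.6% and 86.5%; a WT number of 1 may stand for 0 reads or 1. KO reads ran from 15 to 166 in set 1, with a median of 21, and from 15 to 92 in set 2, with a median of 18. The lower bound of the exact counting interval was at least 3 for 10 gained peaks of set 1 and 0 of set 2. It was at least 1 for 198 and 34. Hence most gained peaks had folds that counting alone places anywhere from a little over 1 on the log2 scale upwards. Only 2 gained peaks of each set overlapped a peak called in the WT library (0.935% and 5.41%), where 36.7% and 51.8% of all listed peaks did. The rule itself picks sites with few WT reads, where a WT peak is seldom called. This difference is therefore no separate result.

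Mylk4, which encodes a member of the myosin light chain kinase family, led set 1 with 20 gained peaks of 124 listed. The gene lies on chr13:32700834-32783954 on the minus strand. Its log2 folds in set 1 ran from −0.40 to 4.43 with a median of 1.66, and 112 of the 124 peaks were above 0. In set 2 its 121 peaks ran from −0.27 to 1.498 with a median of 0.70, and 118 were above 0. None was gained in set 2, and 4 passed a lower log2 threshold of 1, where 86 did in set 1. The gene was therefore on the KO side in both sets, with a larger and wider spread of folds in set 1.

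Its gained peaks were all intronic and 19 of the 20 lay between 6.63 and 22.7 kb from the start of the gene. The 39 intron peaks within the first 40 kb had folds from 1.28 to 4.43 in set 1, with a median of 2.93. The 75 exonic peaks beyond 40 kb had a median of 1.11. In set 2 the order was the other way, with a median of 0.39 over 13 intron peaks of the first 40 kb and 0.71 over 95 exonic peaks beyond it. The strongest gained peak, at chr13:32767064-32767121, had 96 KO reads against 4 in WT and a log2 fold of 4.43 (exact interval 3.02 to 6.33), while the highest overlapping peak of set 2 had 0.67. Over all 20 gained peaks KO reads ran from 47 to 166 and WT reads from 2 to 13, where the median KO number over all gained peaks of the set was 21. The WT library also had peaks here: 47 called in WT in set 1 with a median of 0.90 towards KO, and 102 in set 2 with 0.68. So Mylk4 stood on the KO side in the lists of both directions. Its strongest peak has these 27 letters at its midpoint.
Mylk4, intron, chr13:32767079-32767105, minus strand: tgtgtgatgggatcctgctctctgata

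**Figure D2:**
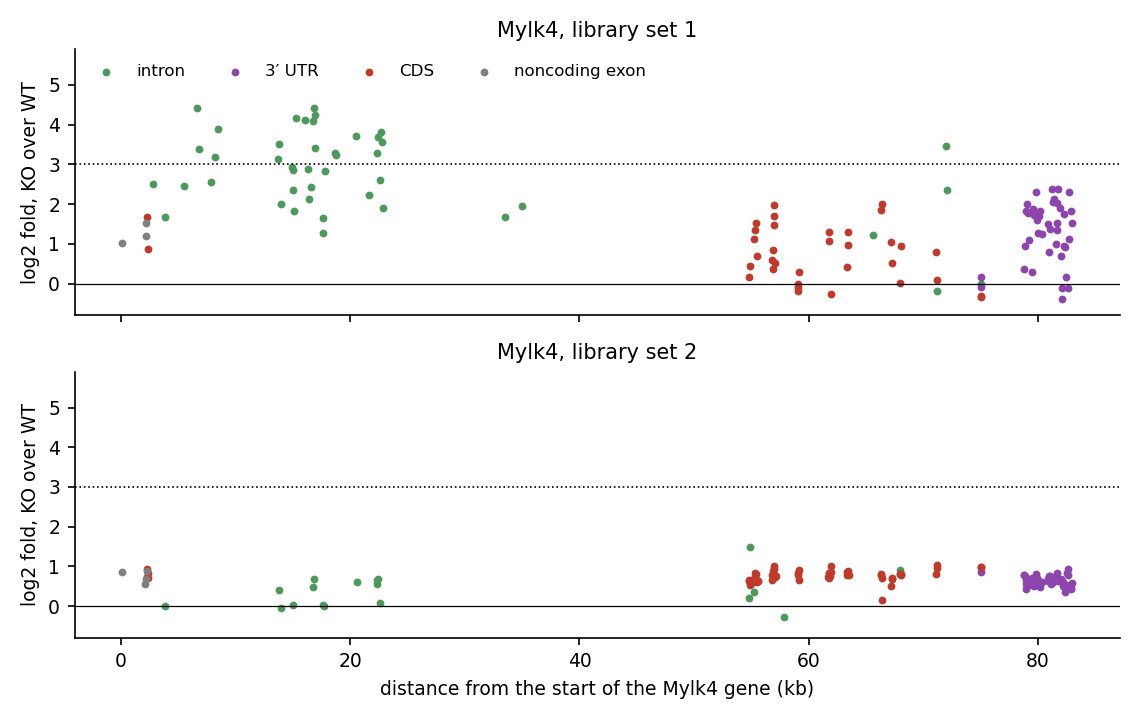
Each point is a listed KO peak of Mylk4, by distance from the start of the gene in kb (x axis) and log2 fold of KO over WT (y axis), coloured by region, for set 1 (top) and set 2 (bottom), with the log2 threshold dotted. In set 1 the intron peaks of the first 40 kb lie from 1.28 to 4.43, and in set 2 the highest point is at 1.498.

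Pde4d, Filip1l and Rbfox1 also had many gained peaks in set 1. Pde4d, a phosphodiesterase that breaks down cyclic AMP, had 8 gained of 573 peaks with a median log2 fold of 1.43 in set 1, and a median of 0.46 over 657 peaks in set 2, where 15 passed the log2 threshold of 1. Filip1l, named for its likeness to a filamin-interacting protein, had 5 gained of 173 with a median of 1.84, and 0.60 in set 2 with 3 past the lower threshold. Rbfox1, a splicing factor of muscle and nerve, had 7 gained of 278 with a median of 1.84, and 0.30 in set 2. Peaks called in WT had lower medians in both sets: 0.10 and 0.07 for Pde4d, 0.21 and −0.01 for Filip1l, and 0.33 and −0.18 for Rbfox1. The Rbfox1 median of set 2 was thus near that of all listed peaks, 0.27, and below 0 for peaks called in WT. These are long genes whose gained peaks were all intronic.

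Kcnj2, Pfkfb3 and Gm26740 were high in set 1 and not in set 2. Kcnj2 encodes an inward rectifier potassium channel of muscle and heart, and its 5 gained peaks all lay in the 3′ UTR. All 14 listed peaks of Kcnj2 in set 1 were above 0, from 1.44 to 4.23 with a median of 2.51. In set 2, 6 of 15 were above 0, from −0.45 to 0.34 with a median of −0.12, so the values of the sets did not overlap. Read numbers at its gained peaks reached 105 in KO against 9 in WT, at chr11:111073985-111074169, where the log2 fold was 3.38 (exact interval 2.40 to 4.55) and the best overlapping peak of set 2 had −0.32.
Kcnj2, highest gained peak, 3′ UTR, chr11:111074971-111074997, plus strand: gttgatgtttgtgccggtctgtggctt

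Pfkfb3 makes an enzyme that sets the level of an activator of glycolysis. In set 1 all 43 of its peaks were above 0, from 0.02 to 3.81 with a median of 1.70, and 4 were gained. In set 2 all 34 were below 0, from −1.72 to −0.17 with a median of −1.003. The peaks called in WT gave the same picture, with medians of 1.09 over 18 peaks and −0.97 over 48. The WT and KO libraries thus took opposite places at this gene in the pair of sets. Gm26740, an antisense RNA gene at chr10:22187013-22302835, had 12 gained of 43 peaks with a median of 2.75 in set 1 and a median of −0.31 over 45 peaks in set 2.
Pfkfb3, highest gained peak, intron, chr2:11498455-11498481, minus strand: cctatgcccagctgggcatagctagaa

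Ryr1, the calcium release channel of the sarcoplasmic reticulum, had 7 gained peaks in set 1 in a gene that otherwise lay on the WT side. Its 204 peaks there had a median of −0.79 and only 46 were above 0. The 7 gained peaks lay in introns and noncoding exons, at 15 to 22 KO reads against 1 or 2 in WT. In set 2 its 352 peaks had a median of 0.23 and a highest value of 0.83. Rnf150 had 4 gained of 147 peaks with medians of 1.84 in set 1 and 0.08 in set 2.

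**Figure D3:**
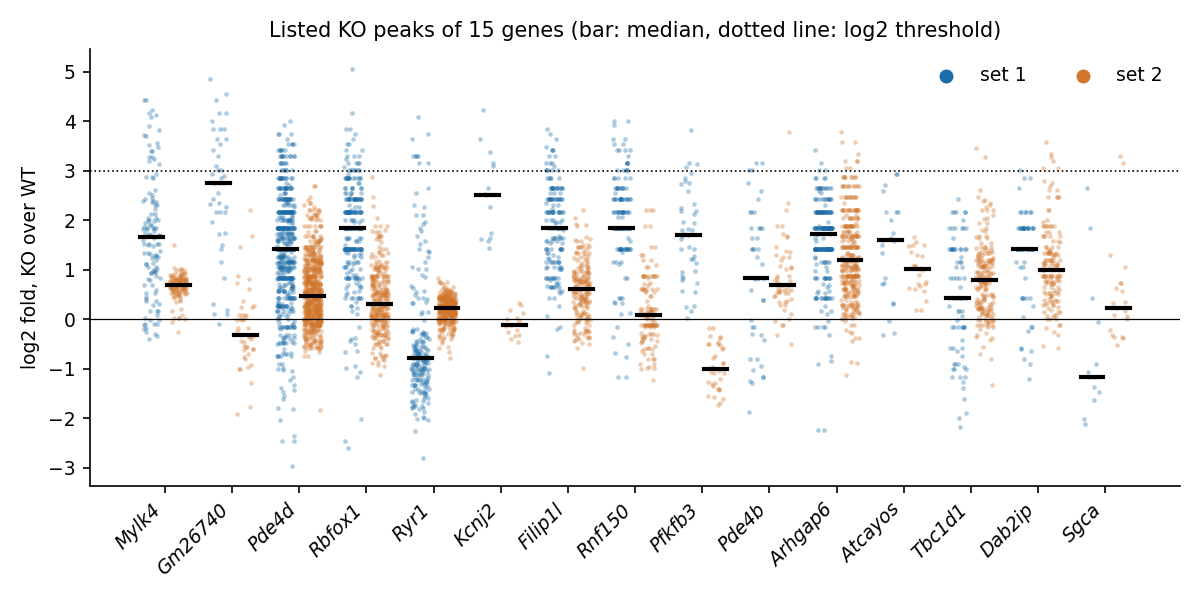
Log2 fold of KO over WT (y axis) of every listed KO peak of 15 genes, with set 1 in blue, set 2 in orange, bars at the median of a gene in a set and the log2 threshold dotted. Mylk4, Pde4d, Filip1l and Arhgap6 have both bars above 0.3, whereas Kcnj2 and Pfkfb3 have bars of 2.51 and 1.70 in set 1 and −0.12 and −1.003 in set 2.

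In set 2 no gene had more than 2 gained peaks. The highest log2 fold was 4.52, at a 3′ UTR peak of Amd1, which makes a decarboxylase of polyamine synthesis, from 25 KO reads against 1 (exact interval 1.91 to 9.88). Over its 15 listed peaks the gene had a median of −0.24. Foxl2, a forkhead transcription factor, had 4.34 from 22 against 1 at its single listed peak, in the 3′ UTR, and this was the only gained peak of set 2 that was also enriched over input, with a log2 fold of 3.70. Setbp1, a DNA-binding protein, had 4.20. Tmed1, a transport protein of the secretory pathway, had 4.05 from 18 against 1.
Amd1, 3′ UTR, chr10:40289171-40289197, minus strand: taatgatagtgcaatcattttgaagtg

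Dkk3 (a secreted glycoprotein of the dickkopf family), Slc41a1 (a magnesium transporter), Mcf2l, Dab2ip (a GTPase-activating protein for Ras), Tbc1d1, Sgca and Gpi1 had 2 gained peaks each in set 2. Gse1 and Gm20388 had the same 2, since Gm20388 is annotated across Gse1 on the same strand. Tbc1d1, which controls glucose transporter traffic in muscle, had 22 of 193 peaks past the log2 threshold of 1, more than any other of these genes. Its median was 0.80 in set 2, with 0.34 over 135 peaks called in WT. In set 1 it was 0.43 over 81 peaks, below the set median of 0.72, and the 93 peaks called in WT had a median of −1.33 with 4 above 0. Dkk3 had a median of 1.88 over 13 peaks in set 2 and a single KO peak, of 1.84, in set 1. Its 15 peaks called in WT in set 1 went the other way, with a median of −1.38 and 0 above 0. Sgca makes alpha-sarcoglycan of the dystrophin complex. Its 2 gained peaks adjoin each other over the coding start, with log2 folds of 3.29 from 32 reads against 3 and 3.15 from 29 against 3, and a peak of set 1 that overlaps both had 2.65 from 14 against 2. The rest of the gene lay lower, with medians of 0.23 over 21 peaks in set 2 and −1.16 over 13 in set 1.
Sgca, CDS, chr11:94973406-94973432, minus strand: gcagcagtaacttggatacctctcctg

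Pde4b was the only gene with a gained peak in both sets, 1 of 12103 genes with a listed peak in both (0.00826%). Like Pde4d it encodes a phosphodiesterase for cyclic AMP. In set 1 the gained peak lay at chr4:102572300-102572327, with a log2 fold of 3.01 from 18 KO reads against 2 (exact interval 0.95 to 6.16). In set 2 it lay at chr4:102575426-102575490, with 3.78 from 15 against 1 (1.08 to 9.18). Both are intronic and they are different sites. Medians of the gene were 0.84 over 46 peaks and 0.69 over 55, while peaks called in WT had −0.56 in set 1 and 0.58 in set 2.
Pde4b, set 1, chr4:102572300-102572326, plus strand: cgcttccccatgttgggggcttcactg
Pde4b, set 2, chr4:102575445-102575471, plus strand: gccttttattgctccctgggtttgaag

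At the lower log2 threshold of 1 with the same −log10 p, 905 peaks of set 1 (0.755%) in 376 genes (2.95%) and 370 of set 2 (0.144%) in 189 genes (1.21%) were past it. In both sets 19 genes had such a peak (0.157%), among them Arhgap6, Atcayos, Coq8a, Filip1l, Gm20388, Gse1, Hnrnpul1, Ldb3, Mylk4, Pde4b, Pde4d, Pde4dip, Pitpnc1, Rora, Speg, Ttn and Wfs1. Several are long genes with many listed peaks, such as Ttn, the giant spring protein of the sarcomere, with 18 of 843 and 2 of 1464. Atcayos, an RNA gene opposite the strand of Atcay, had 4 of 22 and 8 of 24, the largest share in set 2, with medians of 1.59 and 1.02. Arhgap6, a GTPase-activating protein, had 2 of 231 and 2 of 344, with medians of 1.71 and 1.20 and 1 gained peak in set 2.

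Gained peaks of one set were read in the other, which the rule did not use. Of the 214 of set 1, 93 overlapped a listed KO peak of set 2 (43.5%, against 54.1% of all listed peaks). Their median log2 fold in set 2 was −0.12, against −0.03 for all overlapping peaks, and the highest was 0.88. There 39 of the 93 were above that median (41.9%, Wilson 95% interval 32.4 to 52.1). Peaks gained in set 1 thus sat no higher in set 2 than listed peaks in general. Of the 37 of set 2, only 6 overlapped a listed KO peak of set 1 (16.2%, against 28.3%), with a median of 2.13 there against −0.16, and 5 of 6 were above (83.3%, 43.6 to 97.0). These 6 lay in Sgca, where 2 adjoining peaks met the same peak of set 1, and in Gse1, Dab2ip, Mgll and Tmed1. The set 1 values behind this rest on few reads: 14 against 2 for the Sgca peak, 6 against 1 in Gse1, 4 against 1 in Dab2ip and 3 against 1 in Mgll, with a −log10 p of at most 2.30. With the lower threshold of 1, which gave 190 overlapping peaks, 42.1% were above.

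Gene medians were then compared over genes with at least 5 listed peaks. Across 6220 genes the medians of KO-called peaks had a Spearman correlation of 0.424 and a Pearson correlation of 0.383 between sets. These points share the low-count steps of both lists, and genes are not independent replicates. For peaks called in WT the Spearman correlation was 0.118 over 5970 genes. With the mean of the KO-called and WT-called medians of each gene, over 5119 genes, it was −0.05. The correlation of the KO lists therefore did not appear once both calling directions were averaged. Genes 1 or more above the median of the set numbered 96 in set 1 and 97 in set 2, with 4 in both (0.0643%): Cnot10, a subunit of the deadenylase complex, the ephrin receptor Epha4, the chondroitin sulfotransferase Chst11, and Phf21b. Their medians lay from 1.84 to 2.16 and from 1.33 to 1.46, at or near the steps of 3 to 5 reads against 1, and none had a peak past a log2 of 1 with the −log10 p of 3. Peaks of Cnot10, Epha4 and Chst11 called in WT had medians of −1.74 each in set 1.

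**Figure D4:**
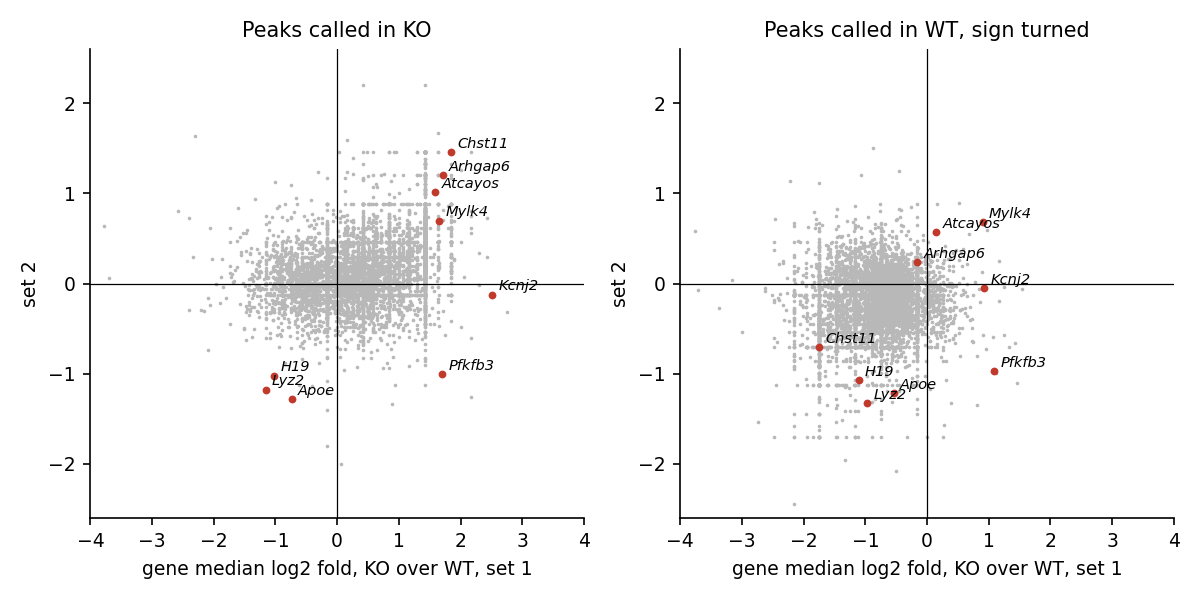
Median log2 fold of KO over WT of each gene in set 1 (x axis) and set 2 (y axis), over genes with at least 5 listed peaks in both sets, for peaks called in KO (left) and in WT with the sign turned (right), with some genes in red. Mylk4 lies above 0 on both axes in both panels, whereas Chst11 is high on the left and at −1.74 and −0.71 on the right.

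Genes were also read in all 4 lists together, KO-called and WT-called in each set. Among 5119 genes with at least 5 peaks in each, 3 had all 4 medians above 0.5 (0.0586%) and 19 had all below −0.5 (0.371%). These genes were picked out after their values were seen. Mylk4 had the highest value of the lowest median, 0.68. Fmod, a proteoglycan that binds collagen fibrils, had 0.90 and 0.58 for KO-called peaks and 0.97 and 0.59 for WT-called peaks. Mreg, a protein of organelle transport, had 1.43 and 0.52, and 0.68 and 0.54. On the WT side H19, an imprinted RNA that is host to a microRNA, lay from −1.11 to −1.02 in the 4 lists, and the macrophage lysozyme Lyz2 from −1.33 to −0.97.

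Regions were read at the midpoint of a peak. In set 1, 63.1% of gained peaks were intronic (56.4 to 69.3), against 39.5% of all listed peaks and 44.4% of peaks within 1 of the set median. The coding share was 7.94% against 35.5%, and the 3′ UTR share 23.4% against 18.3%. Mylk4 and Gm26740 carried part of the intron share, which was 56.6% without them. At the log2 threshold of 1 the 3′ UTR took 50.4% and introns 27.5% in set 1. In set 2, 54.1% of the 37 gained peaks were intronic (38.4 to 69.0), against 43.1%, and 24.3% were coding, against 39.7%. Over the KO input, gained peaks had a median log2 fold of 1.41 in set 1 and 0.64 in set 2, against 0.38 and 0.45 for all listed peaks, and 7.01% and 2.70% were enriched over input, against 0.850% and 1.23%. This comparison shares the KO library with the rule.

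**Figure D5:**
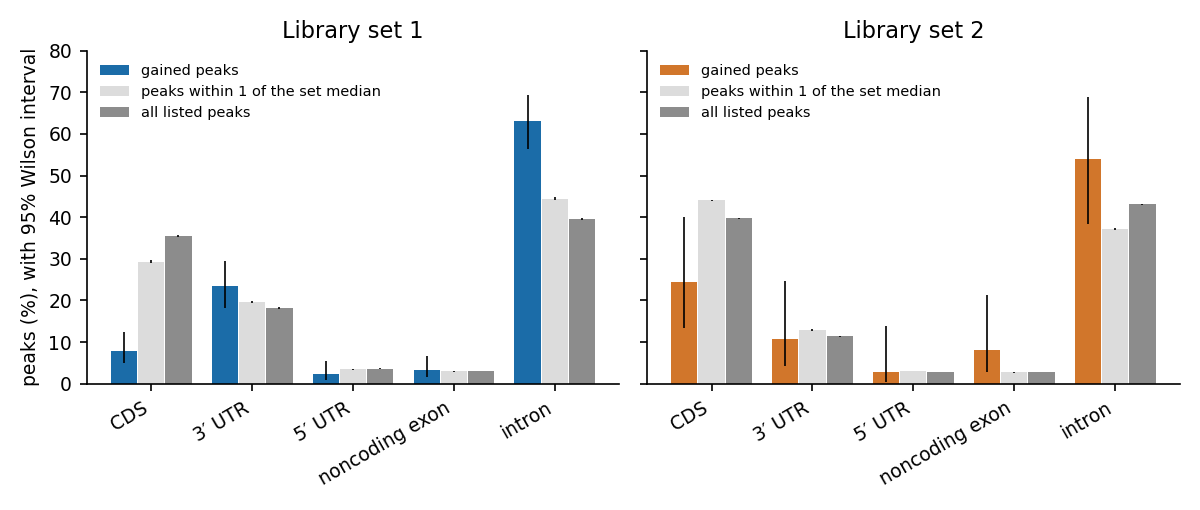
Share of peaks (y axis, percent, with 95% Wilson intervals for counting error) in each region of a gene for gained peaks (colour), peaks within 1 of the set median (light grey) and all listed peaks (dark grey), in set 1 (left) and set 2 (right). Introns hold 63.1% of gained peaks against 39.5% of all listed peaks in set 1, and 54.1% against 43.1% in set 2.

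Gene lists were described by how many of their genes had a gained peak, beside all genes (0.925% in set 1 and 0.198% in set 2), and by the median of their gene medians, beside 0.57 and 0.24 for all genes. Of 19 calcium handling genes with a listed peak, Ryr1, Trdn, which anchors the calcium release channel, and Camk2b, a calmodulin-dependent kinase, had gained peaks in set 1, 12 of the list's 1035 listed peaks (1.16%). Of 40 sarcomere genes 3 had gained peaks, among them Mybpc1 and Myl1. These were 4 of 2708 sarcomere peaks (0.148%), a share no higher than that of all listed peaks. In set 2 neither list had any. For KO-called peaks, medians of gene medians lay below those of all genes. They were −0.25 and 0.08 for calcium handling and −0.37 and 0.01 for the sarcomere. For WT-called peaks the order was the other way. Calcium handling had −0.74 and −0.06 and the sarcomere −0.64 and −0.05, beside −0.90 and −0.36 for all genes.

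The shares below stand beside 0.179% of all listed peaks in set 1 and 0.0144% in set 2. Of 14 genes of the dystrophin complex, Dmd and Nos1 had gained peaks in set 1, 3 of 1126 peaks (0.266%). Dmd alone had 670 of these listed peaks. In set 2 Sgca had gained peaks, 2 of 2295 (0.0871%). Clock genes with gained peaks in set 1 were Bhlhe40, Per3 and Rora of 19 (5 of 742 peaks, 0.674%), with 0 in set 2. The Per3 peak lies in introns of both Camta1 and Per3 and cannot be credited to either. In the PI3K, AKT and FOXO list Irs1 alone of 21 had gained peaks, 2 in the 3′ UTR in set 1 (0.363% of the list's 551 peaks). This docking protein of the insulin receptor had a median of 2.16 over 35 peaks there and of −0.60 over 42 in set 2. In set 1, Fbxo32 and Nedd4, ubiquitin ligases, were the genes of the atrophy list (4 of 478 peaks, 0.837%). Mbnl1 and Rbfox1 were those of the myogenic and splicing list (8 of 983, 0.814%). Tnrc6b was that of the microRNA machinery (2 of 383, 0.522%). Airn, an imprinted antisense RNA of the nuclear RNA list, had 3 gained peaks in that set (of the list's 187, 1.60%). Gpi1 was the glycolysis gene of set 2 (2 of 1086, 0.184%). The TGF-beta, collagen and fatty acid lists had 0 gained peaks in both sets. They had only 320, 582 and 405 listed peaks in set 1, so at these shares the 0 says little.

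The counts of the collagen and fatty acid lists at the lower threshold are given beside 2.95% of all genes in set 1 and 1.21% in set 2, and a difference between sets was not tested. In set 1, 10 of 23 (43.5%) collagen and matrix genes had a peak past a log2 of 1, and in set 2 none of 24 did, with medians of 0.43 and −0.55. Sparc, a matrix glycoprotein, had medians of 0.81 in set 1 and −0.88 in set 2. In fatty acid metabolism the order was the other way, with 1 of 20 genes in set 1, Lpl, and 10 of 20 in set 2, and medians of −0.52 and 0.39. Pnpla2, the first lipase of fat breakdown, had 5 peaks past the threshold in set 2 with a median of 0.51, and −0.80 in set 1. Markers of fibroblasts moved with the collagen list, at 0.42 and −0.32, over 12 of 12 genes, some of which both lists hold, and their part in it was not tested.

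Genes of a summary list from the study's RNA sequencing of KO muscle were also read. The list as used here holds 203 genes with no direction and may be only part of the genes that changed, so its counts are not set against other genes. Of the 136 with a listed peak in set 1, A330023F24Rik, Cited2, Kcnj2 and Pde4d had gained peaks, and of 163 in set 2 Arhgap6 did. At the log2 threshold of 1, Arhgap6 and Pde4d were the genes of the list with a peak in both sets. Glul, glutamine synthetase, and Arrdc3, an arrestin-like protein, took opposite places: medians were −2.59 and 0.80 for Glul and −1.33 and 0.94 for Arrdc3. Of the 18 target genes that the study followed, Bhlhe40, a repressor of the clock, had 1 gained peak in set 1. Its gene median was 1.05 there and −0.38 in set 2. By genes this was 5.56% of the target list, beside 0.925% of all genes. By peaks it was 1 of the list's 1553 (0.0644%), below the 0.179% of all listed peaks.

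The tissue label was read against markers. All 10 skeletal muscle markers had listed peaks in both sets. Their medians were −0.71 and −0.02 for KO-called peaks, below those of all genes, and −0.77 and −0.03 for WT-called peaks, above them. T cell markers had listed peaks in 2 of 14 genes in set 1 and 1 in set 2. Markers of red cells lay lowest, at −0.90 over 5 genes and −1.43 over 8, and those of macrophages at −0.16 over 9 and −0.53 over 13. Endothelial (0.68 and 0.12), adipocyte (0.50 and 0.26) and Schwann cell markers (0.67 and 0.88) had medians above 0 for KO-called peaks in both sets. All genes had 0.57 and 0.24. For peaks called in WT they were −0.89 and −0.12, −0.77 and −0.25, and −0.78 and 0.01. These were lower than for KO-called peaks in every case, as were those of all genes, at −0.90 and −0.36. B cell markers lay at 0.05 and −0.64. None of the 8 marker lists other than that of muscle had a gene with a gained peak. These lists are short beside the shares of all genes, 0.925% in set 1 and 0.198% in set 2, so this says little. Genes made in the liver, which these lists do not cover, had some in set 1, in a list written after the values were seen. The part of the cell makeup in any fold was not tested.

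At the mir-486 locus itself the KO libraries had 0 listed peaks, and peaks called in WT had medians of −5.93 over 2 peaks and −4.15 over 3. Ank1, the host gene, had 36 KO peaks in set 1 and 52 in set 2, with medians of 0.90 and 0.01, maxima of 2.54 and 2.34 and 0 gained. Within 5 Mb of Mir486 there were 0 gained peaks of 390 listed in set 1 and 0 of 861 in set 2, where the shares of all peaks, 0.179% and 0.0144%, would give fewer than 1 in either. Within 20 Mb there were 0 in set 1 and 2 of 3203 in set 2 (0.0624%, beside 0.0138% elsewhere). These 2 are the gained peaks of a single gene, Mcf2l, each from 17 KO reads against 1. Within 1 Mb the medians were 0.84 and 0.16, near those of each whole set. Gained peaks of set 1 were densest on chromosome 13, which holds Mylk4 and Pde4d, at 31 (0.642%). Peaks on microRNA genes numbered 411 in 246 genes in set 1 and 501 in 317 in set 2. Their medians were −0.11 and 0.02, and 0 were gained in either set. The shares of all peaks would also give fewer than 1 here in either. At a log2 of 1 the counts were 3 of 411 in set 1 and 0 of 501 in set 2. Of all listed peaks 0.755% and 0.144% passed it. Mir1249 had 2 of the 3, of 1.02, and Mir1902 had 1, of 1.87. Their share in set 1 was thus no higher than that of all peaks.

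Words that pair with muscle microRNAs were searched in gained peaks, extended by 25 nt on each side, on the strand of the peak only. A word is the complement of positions 2 to 8 of the microRNA, its seed, in capitals in the mature sequences from RefSeq (GRCm38.p6). The words were ACATTCC for miR-206 (shared with miR-1), GGACCAA for miR-133, CTACCTC for let-7, TGGTGCT for miR-29 and TGTTTAC for miR-30.
miR-206-3p: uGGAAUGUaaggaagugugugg
miR-133b-3p: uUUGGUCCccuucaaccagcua
let-7a-5p: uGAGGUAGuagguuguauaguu
miR-29a-3p: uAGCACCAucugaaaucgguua
miR-30a-5p: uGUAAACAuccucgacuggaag

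Any of the 5 words stood in 14 of the 214 gained peaks of set 1 (6.54%, 3.94 to 10.7), beside 9.45% of all listed peaks. Of these 14, 3 are adjoining pieces of the 4930444E06Rik stretch that share the same let-7 word, outside the peaks. The interval takes them as separate peaks. In set 2 any of the words stood in 9 of 37 (24.3%, 13.4 to 40.1), beside 9.74%. The miR-133 word was in 2 of set 1 (0.935%, beside 1.78%) and in 3 of set 2 (8.11%, with an upper bound of 21.3%, beside 1.99%). Gained peaks are longer than listed peaks in general, with median widths of 76.5 against 62 nt in set 1 and 86 against 75 nt in set 2. The 3 matches of set 2 are shown with the word in capitals. A match is a string of letters and was not measured as a binding site.
Foxl2, 3′ UTR, chr9:98958006-98958032, plus strand: tgtctttcggGGACCAAattttctaga
Nnat, 3′ UTR, chr2:157561921-157561947, plus strand: attctgatctGGACCAAgtcggaacag
Ank, intron, chr15:27532075-27532101, plus strand: gccattctctGGACCAAaccatcatga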

How the data were processed

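Total chimeric eCLIP IP libraries of WT and KO muscle, 1 of each in each of 2 sets, were used. The authors' submitted processing notes name UMI-tools, cutadapt, FastQC, STAR, SAMtools and the builds GRCm38 and mm10, and the methods name CLIPper for peaks. The authors deposited for each peak a log2 fold of reads between 2 libraries, scaled to each library. They also deposited a −log10 p for that fold, which is 0 wherever the fold is 0 or less and 400 at most. WT lists over input were not used, and 0 per-sample columns were left unmapped. Read depth is unknown in absolute terms, and the KO library was 1.12 (set 1) and 1.09 (set 2) times as deep as WT by the recovered steps.

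Peaks went to GENCODE M21 genes by midpoint on the same strand. A peak inside several genes went to the gene whose exon held it, or else to all of them. Overlap was 1 nt. Coordinates are GRCm38, 1-based. Read pairs were whole within 0.01 read and matched the −log10 p within 0.5%, a step chosen after seeing the data. Shares have 95% Wilson intervals and folds exact binomial ones, which cover counting error only. Reads without a stated count of molecules may repeat a molecule.

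Members, thresholds and gene lists were chosen with earlier results of these data known. Genes were named by rule: gained in both sets; per set the 10 with most gained peaks and the 10 highest gained peaks; gained and enriched over input; highest and lowest medians in both sets; members of the gene lists with a gained peak; Mir486 and Ank1. Any further gene was picked with its values in view, and some genes that the rule names are not reported here. Python 3.11.15, pandas 2.3.3, NumPy 2.4.6, SciPy 1.17.1 and matplotlib 3.10.9 were used. On simulated peaks, 100% of 300 planted overlaps were found, and 100% of 200 simulated read pairs were recovered. Alternatives were other thresholds, exonic peaks, merged peaks, peaks called in WT, and other overlaps and extensions.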

Additional observations from a re-analysis of the deposited data

How the results depend on the processing

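Counts moved with the thresholds. In set 1 the 214 gained peaks became 905 at a log2 of 1, 57 at a log2 of 4, 74 at a −log10 p of 5, 15 with enrichment over input and 108 with the fold less the set median. In set 2 the 37 became 370, 7, 9 and 1 under the first 4 of these. Genes went from 118 to 376, 38, 35 and 9 in set 1, and to 63 with exonic peaks only. They went from 31 to 189, 8, 9 and 1 in set 2, and to 13 with exonic peaks only. The intronic share was 27.5% at a log2 of 1 and 73.3% with enrichment over input in set 1. In set 2 it was 28.6% at a log2 of 4, 22.2% at a −log10 p of 5 and 0% with enrichment over input. Peaks gained in set 2 that stood above the median in set 1 went from 83.3% to 100% with an overlap of 50% of both peaks, which left 1 peak, and to 42.1% at a log2 of 1. The Spearman correlation of gene medians, 0.424, was 0.118 for peaks called in WT, 0.721 over 146 genes with peaks of a −log10 p of at least 1, and −0.050 for the mean of both directions, a setting chosen after seeing the data, where its sign turned. The cause was not tested. Of 46 alternatives, 17 left the value within 1.5 times or within its interval, among them merged peaks (193 and 34), leaving out Mylk4 (194 and 37) or liver genes (207 and 37), both chosen after seeing the data, and the seed words without extension or at a log2 of 1.

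No paired analysis was possible because the results come from no test: every deposited fold is already taken within a set, KO over WT, and no paired fit over the 2 sets was made. The word for miR-486-5p was not run. With WT reads of 1 or 2 at most gained peaks, depth limits how well any single fold is known.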

Other observations

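Messenger RNAs made in the liver were among the gained peaks of set 1. This list of 40 genes was written after the values were seen, so its counts are descriptions only. Of its genes, 35 had a listed KO peak in set 1 and 12 in set 2. Alb (albumin), Apob (apolipoprotein B) and the major urinary protein genes Mup3, Mup11 and Mup17 had 7 gained peaks between them in set 1, and 0 genes had one in set 2. Alb had 20 listed peaks with a median log2 fold of 1.43 and a highest of 4.09, from 19 KO reads against 1. Apob had 12 with a median of 2.13. At Mup11 the single peak had 5.62, from 55 reads against 1. The Mup genes are close copies of each other, so which of them the reads came from is uncertain. None of these 5 genes had a listed KO peak in set 2. Over the KO input the 2 gained Alb peaks had log2 folds of −1.54 and −1.34.

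Heat shock genes, taken as a list, lay on the WT side for KO-called peaks in both sets. Of 20 heat shock genes, a list also written after the values were seen, 19 had a listed peak in set 1 and 20 in set 2. None had a gained peak, and the medians of gene medians were −0.57 and −0.35, beside 0.57 and 0.24 for all genes. For WT-called peaks they were −0.99 and −0.41, near the −0.90 and −0.36 of all genes. Members with a KO-called median above 0 were Dnaja1 (0.05), Hsf1 (0.26) and Stip1 (0.43) in set 1. In set 2 they were Bag3 (0.06) and Hsf1 (0.61). The members named next were picked for low values. Hsp90aa1, an inducible chaperone, had −0.75 and −1.29 for KO-called peaks, and −1.27 and −1.16 for WT-called peaks. Serpinh1, a chaperone of collagen, had −0.62 and −1.13, and −1.33 and −1.15. Hspb8 and Hsph1, members too, also lay below −0.5 in all 4 lists. Genes that are not heat shock genes were picked for low values as well. Apoe, an apolipoprotein made by macrophages and liver, had −0.74 and −1.28 for KO-called peaks, and −0.54 and −1.22 for WT-called peaks. The cytoskeletal actin Actb lay from −1.23 to −0.60 in the 4 lists, and the immediate early kinase Sik1 from −1.66 to −0.57.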
